A study of Mus musculus with 14 samples.

Results

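The 9 myeloid lineage transcription factors described here were Cebpa, Cebpe and Gfi1, taken as granulocyte factors, Spi1, Irf8, Klf4 and Klf2, taken as monocyte factors, and Cebpb and Maf, taken as macrophage factors. They were chosen by gene symbol, as all array probes that carried one of these symbols alone. This gave 14 probes of the 45281 on the array, and 9 of the 19057 genes with a symbol. Every gene had a probe. Cebpe had 4 probes, Klf4 had 3 and each of the others had 1, and a gene is given by its brightest probe unless another is named.

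Myeloid cells arise in the bone marrow from shared granulocyte-monocyte progenitors, and a small set of transcription factors directs them to one lineage or another. C/EBPα commits progenitors to the myeloid lineage, and C/EBPε and the repressor GFI1 act later, in maturing neutrophils, where C/EBPε drives the genes of the secondary granules. PU.1, encoded by Spi1, is needed for all myeloid cells, IRF8 and KLF4 favour monocytes and dendritic cells, and C/EBPβ and MAF act in mature macrophages, so the assignment of each factor to 1 lineage is a simplification.

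GFP+CD11b+ cells were sorted from 14-week-old C57Bl/6J mice whose bone marrow was GFP-tagged, and their RNA was measured on 14 one-color arrays, with log2 values. The bone marrow grafts came from transgenic donors in which the ubiquitin C promoter drives GFP, recipients were lethally irradiated, and cells of the host therefore carried no GFP. The 6 brain metastasis (BrM) arrays were 4 from mice with intracranial PyMT tumors and 2 from mice with intracranial EO771 tumors, both murine breast cancer cell lines, after about 2 weeks of growth. The 8 control arrays were 3 spleens and 1 bone marrow of PyMT mice and 2 spleens and 2 bone marrows of naïve mice without tumors. Naïve tissue stood in for EO771 mice, so that in the EO771 comparison the tissue and the presence of a tumor cannot be told apart. Codes in the titles appear to mark animals, and some are shared between tissues. PyMT BrM 3, spleen 1 and bone marrow 1 share a code, as do PyMT BrM 2 and spleen 2, PyMT BrM 4 and spleen 3, and naïve spleen 1 and both naïve bone marrows. The title of EO771 BrM 2 holds 2 codes, which may mean a pool. The p-values measure the spread between arrays, and arrays that share a code may not be independent.

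The sorted cells were checked against markers, with Itgam, the gene of CD11b, at a mean log2 value of 7.39 over the 14 arrays. Of 11 macrophage markers, 7 rose in BrM against the pooled controls and none fell (4 without either of the 2 arrays described next), and their mean log2 value was 11.37 to 11.90 on BrM arrays and 8.31 to 10.14 on control arrays. Of 11 neutrophil markers, 9 fell in BrM and none rose, with means of 6.81 to 9.09 on BrM arrays and 11.41 to 12.57 on control arrays. Of 12 genes induced by tissue dissociation, 7 rose in BrM (6 without PyMT BrM 1). Their means were 7.78 to 9.29 on BrM arrays and 6.28 to 7.05 on control arrays. Of 8 microglia markers, 4 rose and none fell, although the sort was for cells of the GFP+ graft. Their means were 9.31 to 9.74 on PyMT BrM arrays, 7.66 to 8.47 on EO771 BrM arrays and 5.47 to 6.22 on control arrays. On BrM arrays the neutrophil mean still exceeded the median probe of the array, at 3.99. So did the mean of 8 dendritic cell markers, at 4.07 to 4.80, and remaining neutrophils were not read from this. The part of cell type makeup in the differences below was not tested. In sorted bulk samples, fewer cells of a type and less RNA per cell cannot be told apart. Within PyMT arrays 2 stood apart. Pairs of PyMT spleens correlated at 0.885 to 0.959 (Pearson's r over probes brighter than the median probe). PyMT spleen 2 had a neutrophil mean of 12.37, within the bone marrow range of 12.13 to 12.57, while PyMT spleens 1 and 3 had 11.83 and 11.41. PyMT BrM 1 had the lowest neutrophil mean of 6.81 and the highest dissociation mean of 9.29. Results that rest on either array are given with and without it.

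The question was whether factors of the granulocyte, monocyte and macrophage lineages differed between myeloid cells in BrM and those in the spleen and bone marrow. In the pooled comparison of 6 BrM and 8 control arrays, 2 of the 9 factors rose (Cebpa and Cebpb), 3 fell (Cebpe, Gfi1 and Klf2) and 4 did not pass the test (limma, adjusted p under 0.01 over all probes). Among all 19057 genes, 9.03% were called, 4.89% higher and 4.13% lower. Of all called probes 54.9% were higher, but only 35.1% when each array was centered on reference genes, which moved the median difference of all genes from -0.01 to -0.18. The granulocyte factors moved in opposite directions, with 1 higher and 2 lower of 3. Of the 4 monocyte factors 1 fell and none rose, and of the 2 macrophage factors 1 rose. All BrM arrays lay above all control arrays for Cebpa alone, and below all of them for Cebpe and Gfi1. Groups did not overlap in the higher direction for 4.25% of all genes and in the lower direction for 3.73%.

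**Figure D1:**
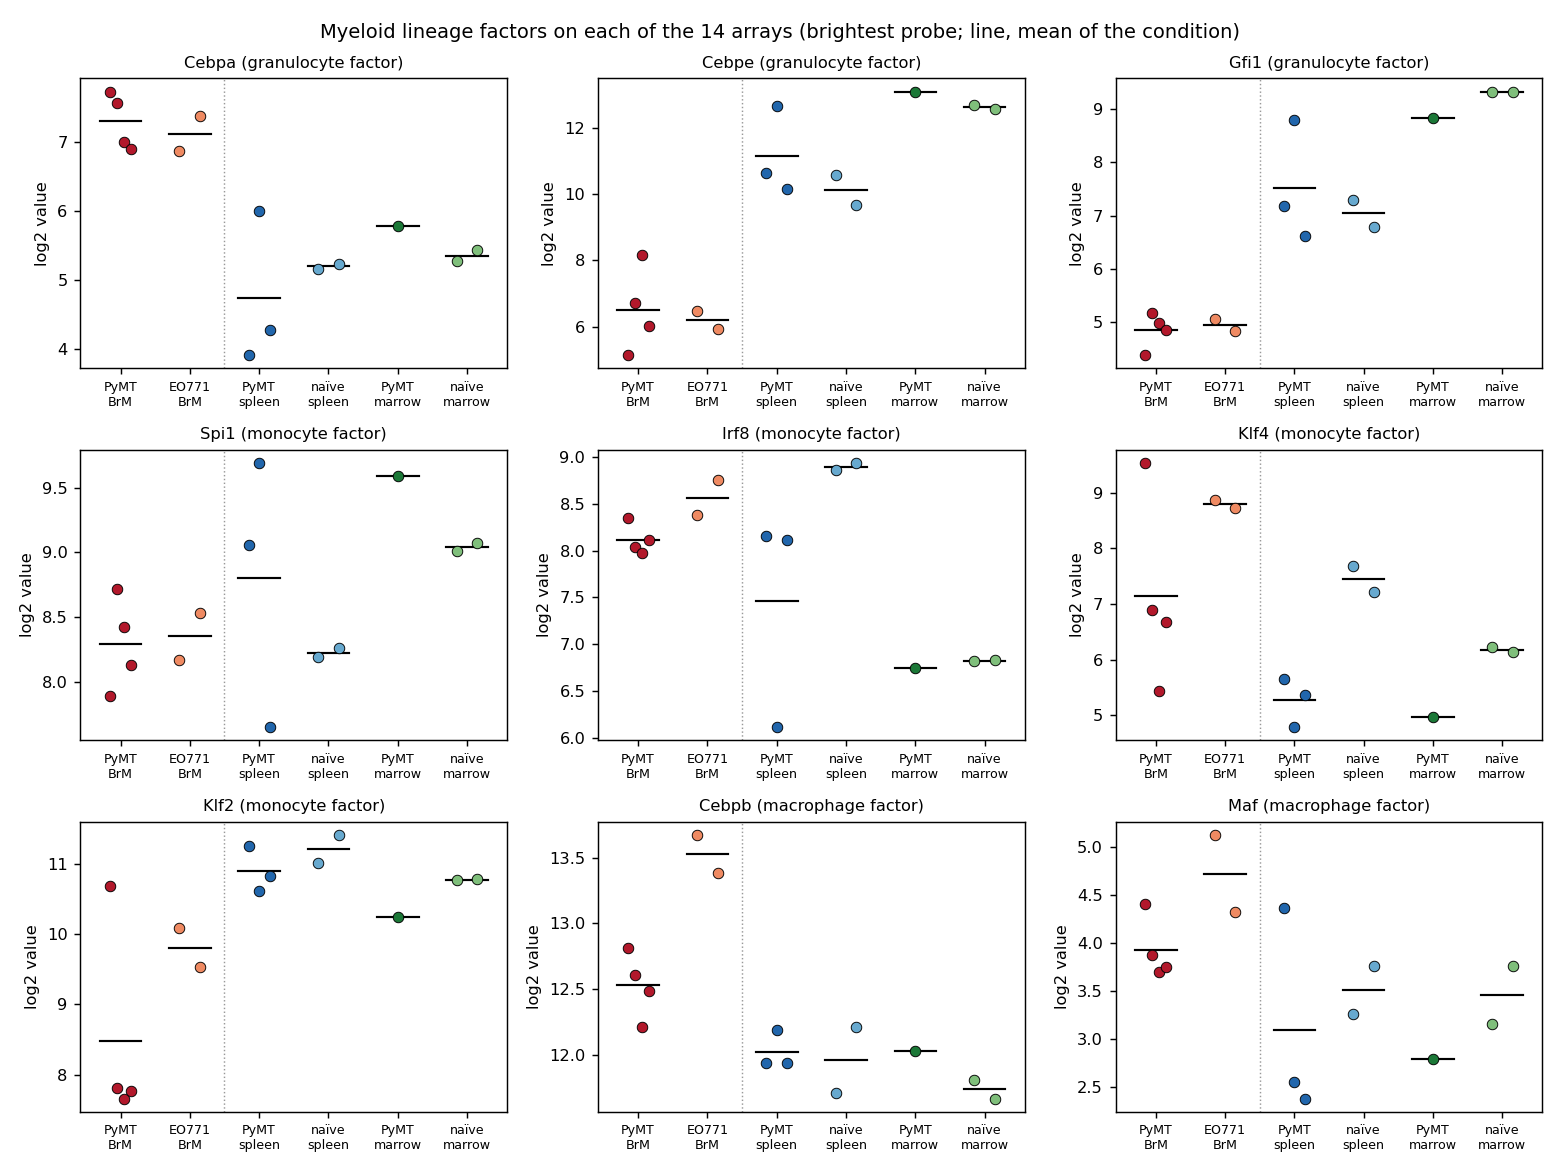
Log2 value of each factor (y axis) on each of the 14 arrays in the 6 conditions (x axis), 1 point per array, with a line at the mean of the condition; the dotted line divides BrM from control conditions. Cebpa was between 6.87 and 7.74 on BrM arrays and between 3.91 and 6.01 on control arrays, and Cebpe was between 5.14 and 8.16 against 9.68 and 13.10.

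Cebpe, which drives the late granule program of neutrophils, differed most of the 9. Its log2 value was 5.14, 6.70, 8.16 and 6.02 on the PyMT BrM arrays 1 to 4 and 6.48 and 5.92 on the EO771 BrM arrays. It was 10.64, 12.65 and 10.16 on the PyMT spleens, 10.58 and 9.68 on the naïve spleens, 13.10 on the PyMT bone marrow and 12.68 and 12.58 on the naïve bone marrows. Every control array was above every BrM array, bone marrow was above spleen except for PyMT spleen 2, which lay among the bone marrow arrays, and PyMT BrM 3 was the highest of the BrM arrays. The pooled log2 difference was -5.11 (SE 0.59; limma, adjusted p = 2.37e-05), a level 34.4-fold lower in BrM. The other 3 probes of Cebpe gave differences of -5.27, -4.55 and -4.21, with limma adjusted p from 2.73e-05 to 0.000241. Over the 14 arrays the 4 probes correlated at 0.982 to 0.998.

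Gfi1, a zinc finger repressor that holds progenitors on the neutrophil path, was likewise lowest on BrM arrays and highest on bone marrow arrays. It was 4.39, 5.18, 4.99 and 4.86 on PyMT BrM and 5.07 and 4.83 on EO771 BrM. It was 7.17, 8.79 and 6.61 on PyMT spleens, 7.30 and 6.78 on naïve spleens, 8.83 on the PyMT bone marrow and 9.32 on both naïve bone marrows. BrM arrays lay close together, below all spleens, and all spleens were below all bone marrows, PyMT spleen 2 only narrowly. BrM differed from the pooled controls by a log2 difference of -3.13 (SE 0.44; limma, adjusted p = 0.000147), a level 8.74-fold lower in BrM. Over the 14 arrays Gfi1 and Cebpe correlated at 0.97, a value that spans the gap between BrM and control arrays and carries no test.

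Cebpa, the upstream factor of the granulocyte group, went the other way. It was 7.74, 7.58, 7.01 and 6.90 on PyMT BrM and 6.87 and 7.39 on EO771 BrM. It was 3.91, 6.01 and 4.28 on PyMT spleens, 5.16 and 5.24 on naïve spleens, 5.79 on the PyMT bone marrow and 5.28 and 5.43 on naïve bone marrows. PyMT spleen 2 was the highest control array and the other PyMT spleens were the lowest. The pooled log2 difference was 2.11 (SE 0.30; limma, adjusted p = 0.000188), a level 4.32-fold higher in BrM. The pooled calls of Cebpa, Cebpe and Gfi1 held under all 12 alternative settings and with each of the 14 arrays left out. Those settings include a looser limit, an adjusted p under 0.05, where no call made at 0.01 can be lost. On leaving out an array, Cebpa was between 1.93 and 2.23, Cebpe between -5.46 and -4.85 and Gfi1 between -3.33 and -2.94.

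Promoters of the 2 factors that rose are shown because C/EBP proteins and CREB-type factors are known to act on C/EBP genes. Each is 250 bases before to 50 bases after a RefSeq start in GRCm38.p6, written 5′ to 3′ on the strand of the gene. Capitals mark TTGCG, a core bound by C/EBP proteins, in Cebpa at chr7:35119043-35119342 (+ strand) and TGACG, a core bound by CREB and ATF proteins, in Cebpb at chr2:167688665-167688964 (+ strand), with both strands searched (CGCAA and CGTCA on the other strand).
Cebpa: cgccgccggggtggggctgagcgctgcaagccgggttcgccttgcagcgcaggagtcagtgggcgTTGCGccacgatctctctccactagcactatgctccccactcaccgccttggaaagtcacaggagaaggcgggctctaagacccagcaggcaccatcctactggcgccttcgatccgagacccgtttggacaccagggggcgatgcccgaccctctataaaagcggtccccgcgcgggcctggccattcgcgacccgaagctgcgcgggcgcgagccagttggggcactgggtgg
Cebpb: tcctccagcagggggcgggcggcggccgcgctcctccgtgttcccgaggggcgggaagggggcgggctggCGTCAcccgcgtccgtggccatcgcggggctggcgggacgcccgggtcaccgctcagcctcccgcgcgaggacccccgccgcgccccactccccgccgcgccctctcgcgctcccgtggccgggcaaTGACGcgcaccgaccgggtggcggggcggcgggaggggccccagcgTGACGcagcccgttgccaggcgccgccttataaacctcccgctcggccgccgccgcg
The Cebpa window held 1 match of TTGCG, at position -185 from the start site, and 17.4% of all 32851 RefSeq promoter windows held at least 1. The Cebpb window held 3 matches of TGACG, at positions -180, -53 and -7, and 20.8% of all windows held at least 1. The matches are descriptions of sequence, and no binding was measured.

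Among the macrophage factors, Cebpb, which acts on inflammatory and arginase genes of macrophages, was bright on every array. It was 12.81, 12.61, 12.21 and 12.49 on PyMT BrM and 13.67 and 13.38 on EO771 BrM. It was 11.94, 12.19 and 11.94 on PyMT spleens, 11.71 and 12.21 on naïve spleens, 12.03 on the PyMT bone marrow and 11.81 and 11.67 on naïve bone marrows. Both EO771 BrM arrays were above all others, and among BrM arrays only PyMT BrM 3 met the control range, at the level of naïve spleen 2. Against the pooled controls the log2 difference was 0.92 (SE 0.22; limma, adjusted p = 0.00983), a 1.9-fold rise close to the threshold. The call was lost under 7 of 12 alternative settings (limma, adjusted p up to 0.0349) and on leaving out any of 13 of the 14 arrays, PyMT BrM 3 being the exception (up to 0.0287), with the difference between 0.75 and 1.09 over the settings. The limma adjusted p was 0.0205 without PyMT BrM 1 and 0.0119 without PyMT spleen 2. With the animal code of the titles as a replicate block, the difference was 0.87 (SE 0.22; limma, adjusted p = 0.0128), which did not pass. Its 3 highest BrM arrays, both EO771 BrM arrays and PyMT BrM 1, were also the 3 with the highest dissociation means.

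Maf, the c-MAF protein of mature macrophages, had a dim probe, with a mean log2 value of 3.65 over the 14 arrays, at the 37.6th percentile of all probes. It was 4.40, 3.87, 3.70 and 3.75 on PyMT BrM and 5.12 and 4.32 on EO771 BrM. It was 4.36, 2.55 and 2.38 on PyMT spleens, 3.26 and 3.76 on naïve spleens, 2.79 on the PyMT bone marrow and 3.16 and 3.76 on naïve bone marrows. EO771 BrM 1 was the highest array, and PyMT spleen 1, naïve spleen 2 and naïve bone marrow 2 were within the BrM range. The pooled log2 difference was 0.94 (SE 0.32; limma, adjusted p = 0.0643), which did not pass the test. No detection values were used here, so the distance of this signal from background is not known. Of the 14 arrays left out 1 at a time, only the omission of PyMT spleen 1, the highest control array, let Maf pass. It then passed against spleen at 1.34 (limma, adjusted p = 0.00459) and in the PyMT model at 1.36 (limma, adjusted p = 0.00724). Leaving out other arrays gave limma adjusted p up to 0.306 and 0.319 in these comparisons.

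Of the monocyte factors, Spi1, which encodes PU.1, varied least, with an SD of 0.61 over the 14 arrays. It was 7.89, 8.72, 8.42 and 8.13 on PyMT BrM and 8.17 and 8.53 on EO771 BrM. It was 9.06, 9.69 and 7.65 on PyMT spleens, 8.19 and 8.26 on naïve spleens, 9.59 on the PyMT bone marrow and 9.01 and 9.07 on naïve bone marrows. All 6 BrM arrays lay within the range of the spleens and below the 3 bone marrows. The log2 difference of BrM from all controls was -0.50 (SE 0.30; 95% interval -1.13 to 0.13; limma, adjusted p = 0.356).

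Irf8, a factor of monocytes and dendritic cells, also overlapped. It was 8.35, 8.04, 7.97 and 8.11 on PyMT BrM and 8.38 and 8.75 on EO771 BrM. It was 8.16, 6.12 and 8.11 on PyMT spleens, 8.86 and 8.93 on naïve spleens, 6.75 on the PyMT bone marrow and 6.82 and 6.83 on naïve bone marrows. The bone marrows and PyMT spleen 2 were low, and the naïve spleens were above every BrM array. Pooled over controls, the log2 difference was 0.69 (SE 0.41; 95% interval -0.17 to 1.56; limma, adjusted p = 0.356).

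Klf4, a factor of monocyte differentiation, had 3 probes that did not give the same call. The brightest was 9.53, 6.90, 5.44 and 6.67 on PyMT BrM, 8.88 and 8.73 on EO771 BrM, 5.65, 4.79 and 5.36 on PyMT spleens and 7.68 and 7.21 on naïve spleens. It was 4.96 on the PyMT bone marrow and 6.23 and 6.13 on naïve bone marrows. PyMT BrM 1 and both EO771 BrM arrays were above all controls, and the other 3 PyMT BrM arrays were below both naïve spleens. Its pooled log2 difference was 1.69 (SE 0.61; limma, adjusted p = 0.0904). The other probes gave 2.28 (limma, adjusted p = 0.00249), which passed, and 1.58 (limma, adjusted p = 0.0117), which did not, and the mean of the 3 gave 1.85 (limma, adjusted p = 0.00792). The probes correlated at 0.717 to 0.889 over the 14 arrays, and PyMT BrM 1 was the highest array on each of them.

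**Figure D2:**
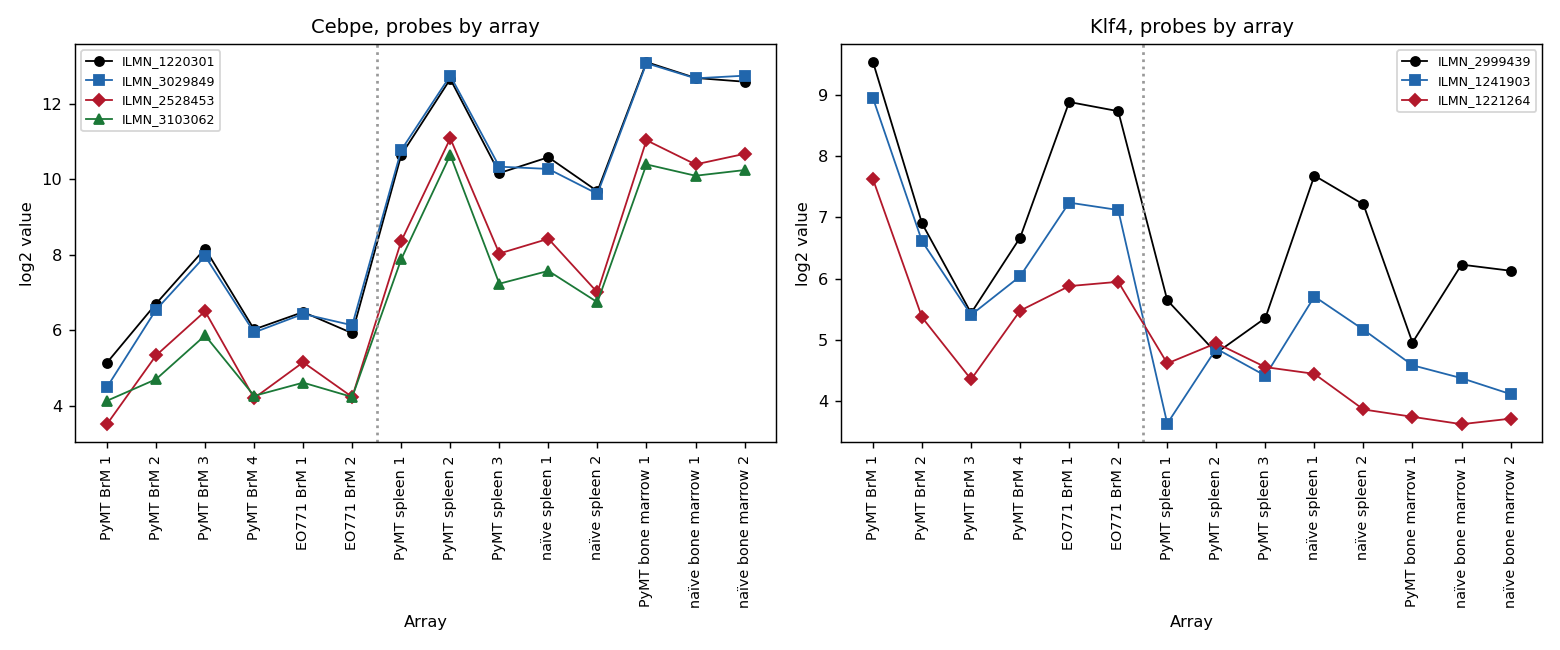
Log2 value (y axis) of each probe of Cebpe (left, 4 probes) and Klf4 (right, 3 probes) on each array (x axis), with lines joining values of 1 probe and a dotted line between BrM and control arrays. The Cebpe probes rose and fell together (r of 0.982 to 0.998), and the Klf4 probes less so (0.717 to 0.889), with PyMT BrM 1 highest on all 3.

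Klf2, which restrains activation of monocytes and macrophages, fell in the pooled comparison. It was 10.68, 7.81, 7.66 and 7.77 on PyMT BrM and 10.09 and 9.53 on EO771 BrM. It was 11.25, 10.62 and 10.83 on PyMT spleens, 11.02 and 11.41 on naïve spleens, 10.24 on the PyMT bone marrow and 10.77 and 10.78 on naïve bone marrows. PyMT BrM 2 to 4 were far below all other arrays, both EO771 BrM arrays were below all controls, and PyMT BrM 1 was within the control range. The pooled log2 difference was -1.94 (SE 0.44; limma, adjusted p = 0.00702), a level 3.84-fold lower, and without PyMT BrM 1 it was -2.29 (SE 0.39; limma, adjusted p = 0.00121). Without PyMT spleen 2 it was -1.97 (SE 0.47; limma, adjusted p = 0.011). The call was lost under 4 of 12 alternative settings (limma, adjusted p up to 0.0286) and on leaving out any of 10 of the 14 arrays (up to 0.0213), the exceptions being PyMT BrM 1, PyMT bone marrow 1 and both EO771 BrM arrays.

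The 3 arrays on which Klf2, Klf4 and Cebpb were highest among BrM were also those on which dissociation genes were highest. The mean log2 value of the 12 dissociation genes was 9.29 on PyMT BrM 1, 8.90 and 8.60 on the EO771 BrM arrays and 7.80, 8.10 and 7.78 on PyMT BrM 3, 2 and 4. Klf2 was between 9.53 and 10.68 on the first 3 of these arrays and between 7.66 and 7.81 on the others. On control arrays the dissociation mean was 6.28 to 7.05 while Klf2 was 10.24 to 11.41. Whether sample handling played a part in the levels of Klf2, Klf4 and Cebpb, or in their differences between the models, was not tested.

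**Figure D3:**
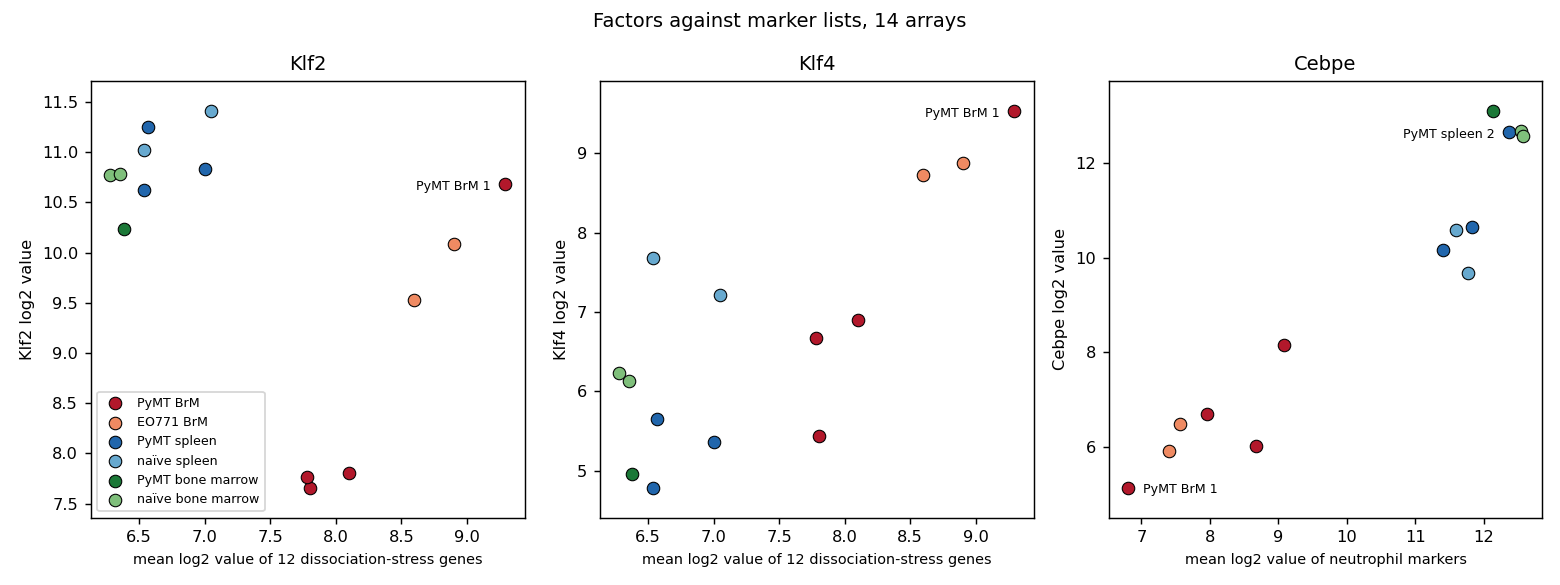
Klf2 and Klf4 against the mean log2 value of 12 dissociation-stress genes, and Cebpe against that of 11 neutrophil markers, 1 point per array in the 6 conditions (all axes in log2 values). Within BrM, PyMT BrM 1 was highest for the dissociation mean (9.29), Klf2 (10.68) and Klf4 (9.53), and lowest for the neutrophil mean (6.81) and Cebpe (5.14).

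Promoters of Irf8 and Klf2 are shown for the monocyte factors, with a palindrome bound by STAT proteins and one bound by MEF2 proteins, which are known regulators of the respective gene. Capitals mark TTCNNNGAA in Irf8 at chr8:120736108-120736407 (+ strand), its upstream RefSeq start, and the MEF2 palindrome in Klf2 at chr8:72318812-72319111 (+ strand), where N is any base. Both motifs read the same on either strand.
Irf8: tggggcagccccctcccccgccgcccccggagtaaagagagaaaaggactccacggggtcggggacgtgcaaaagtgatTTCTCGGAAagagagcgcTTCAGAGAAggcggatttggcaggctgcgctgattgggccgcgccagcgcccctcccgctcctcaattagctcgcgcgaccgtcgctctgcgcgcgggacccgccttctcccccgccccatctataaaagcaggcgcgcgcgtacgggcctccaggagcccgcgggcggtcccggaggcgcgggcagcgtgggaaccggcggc
Klf2: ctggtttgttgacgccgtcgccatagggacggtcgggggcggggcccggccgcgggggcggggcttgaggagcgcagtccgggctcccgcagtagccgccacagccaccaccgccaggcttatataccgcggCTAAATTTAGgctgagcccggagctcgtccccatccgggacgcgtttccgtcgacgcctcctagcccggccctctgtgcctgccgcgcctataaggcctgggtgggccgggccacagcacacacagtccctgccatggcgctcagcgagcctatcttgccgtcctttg
The Irf8 window held 2 matches of TTCNNNGAA, at positions -171 and -153, and 8.30% of all windows held at least 1. The window of the second Irf8 start held 0. The Klf2 window held 1 match of the MEF2 palindrome, at position -118, and 3.69% of all windows held at least 1. Windows were used for 6 of the 9 factors. Both windows of Gfi1 held no AAATC, the core bound by GFI1 itself, on either strand, while 35.9% of all windows held at least 1. The Klf4 window held no CACCC, the motif chosen for it, on either strand, while 57.5% of all windows held at least 1.

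Bone marrow and spleen may differ in how many maturing precursors they hold, so BrM was also set against each tissue. The mean of both BrM conditions was set against the mean of both spleen or both bone marrow conditions. Against spleen 2 factors rose and 2 fell, where 8.50% of all genes were called, 4.61% higher and 3.89% lower. Cebpa was 2.25 higher (SE 0.35; limma, adjusted p = 0.00124) and Cebpb 1.03 higher (SE 0.18; limma, adjusted p = 0.00229). The call of Cebpb was lost without EO771 BrM 1 (limma, adjusted p = 0.0191) or naïve spleen 1 (0.0168). Cebpe was lower at a log2 difference of -4.29 (SE 0.56; limma, adjusted p = 0.000372) and Gfi1 at -2.38 (SE 0.35; limma, adjusted p = 0.000782). Klf2, at -1.91 (SE 0.50; limma, adjusted p = 0.0244), did not pass, but without PyMT BrM 1 it was -2.28 (SE 0.20; limma, adjusted p = 4.56e-05). Spi1 at -0.19 and Irf8 at 0.16 were near 0, with 95% intervals of -0.90 to 0.52 and -0.57 to 0.90, and without PyMT spleen 2 they were 0.03 and -0.17.

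Against bone marrow 1 factor rose and 2 fell, where 10.7% of all genes were called, 5.46% higher and 5.19% lower. Cebpe was 91.4-fold lower at a log2 difference of -6.51 (SE 0.67; limma, adjusted p = 8.5e-05), and Gfi1 was 18-fold lower at -4.17 (SE 0.41; limma, adjusted p = 7.2e-05). Cebpb was 1.14 higher (SE 0.21; limma, adjusted p = 0.00347), a call lost without either EO771 BrM array or either naïve bone marrow array (limma, adjusted p up to 0.0189). Cebpa at 1.64 (SE 0.42; limma, adjusted p = 0.0205) and Irf8 at 1.55 (SE 0.40; limma, adjusted p = 0.0218) did not pass, although all BrM arrays were above all bone marrows. Without PyMT spleen 2, which enters this comparison only through the shared spread, both passed, with limma adjusted p of 0.000782 and 0.000101. Without PyMT BrM 1, Klf2 at -1.73 and Klf4 at 2.00 passed as well (limma, adjusted p = 0.000743 and 0.0035). Groups did not overlap for 3 factors in the higher direction and 3 in the lower, beside 12.1% and 11.9% of all genes.

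**Figure D4:**
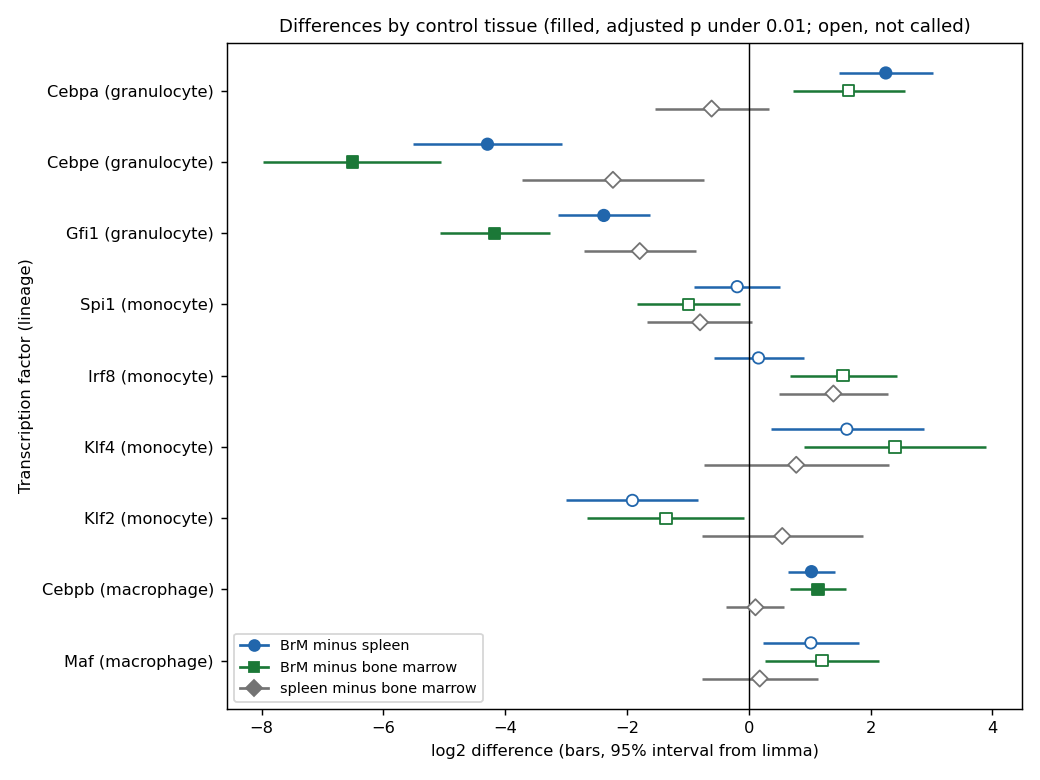
Log2 difference (x axis) of each factor (y axis) for BrM minus spleen, BrM minus bone marrow and spleen minus bone marrow, with 95% intervals from limma; filled symbols were called at an adjusted p under 0.01. Cebpe and Gfi1 lay furthest to the left against bone marrow (-6.51 and -4.17), and no spleen minus bone marrow symbol is filled.

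Spleen and bone marrow were then compared with each other. No factor was called by limma, and of all 19057 genes only 1 was (0.00525%). At an unadjusted p under 0.05, 1 factor was higher and 2 were lower in spleen, Irf8 at 1.39 (SE 0.41; limma, adjusted p = 0.133), Cebpe at -2.23 (SE 0.68; limma, adjusted p = 0.143) and Gfi1 at -1.79 (SE 0.42; limma, adjusted p = 0.0965). All spleens were below all bone marrows for Gfi1, as they were for 3.69% of all genes. Without PyMT spleen 2, Gfi1 at -2.11 and Irf8 at 1.73 passed (limma, adjusted p = 0.000494 and 0.000223) and Cebpe at -2.60 did not (limma, adjusted p = 0.0168).

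Each tumor model was read against its own controls. In the PyMT model 1 factor rose and 2 fell, where 6.19% of all genes were called, 3.77% higher and 2.42% lower. Cebpa was 2.31 higher (SE 0.41; limma, adjusted p = 0.00261), and Cebpe at -5.13 (SE 0.82; limma, adjusted p = 0.00128) and Gfi1 at -2.99 (SE 0.61; limma, adjusted p = 0.00602) were lower. Cebpb, at 0.50 (SE 0.19; limma, adjusted p = 0.126), did not pass, although all PyMT BrM arrays were above all PyMT controls, as they were for 11.0% of all genes. Klf2, at -2.25 (limma, adjusted p = 0.0159), passed without PyMT BrM 1, at -2.98 (limma, adjusted p = 3.34e-05), while Cebpa at 2.17 (limma, adjusted p = 0.011) and Gfi1 at -2.84 (limma, adjusted p = 0.0221) did not. The call of Gfi1 was also lost without any other PyMT BrM array, PyMT spleen 2, the PyMT bone marrow or either EO771 BrM array, at differences of -3.10 to -2.67 (limma, adjusted p up to 0.021), and that of Cebpa without PyMT BrM 2 (limma, adjusted p = 0.0107).

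In the EO771 model, where controls were naïve tissue, 1 factor rose and 1 fell, where 4.28% of all genes were called, 2.59% higher and 1.68% lower. Cebpb was 1.67 higher (SE 0.24; limma, adjusted p = 0.00062), and Cebpe at -5.18 (SE 1.01; limma, adjusted p = 0.00608) was lower. Gfi1 at -3.23 (limma, adjusted p = 0.0174) and Cebpa at 1.85 (limma, adjusted p = 0.0414) did not pass, with both EO771 BrM arrays outside the range of the naïve arrays, as they were for 17.5% of all genes in each direction. The call of Cebpe was lost without either EO771 BrM array, without either naïve bone marrow array and without PyMT BrM 2, with limma adjusted p from 0.0106 to 0.0818, and that of Cebpb without EO771 BrM 1 (limma, adjusted p = 0.0243). Without naïve spleen 2, Gfi1 passed at -3.70 (limma, adjusted p = 0.00658).

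The difference between the PyMT and EO771 comparisons was tested directly. The PyMT controls were 3 spleens and 1 bone marrow of tumor-bearing mice, and the EO771 controls were 2 spleens and 2 bone marrows of naïve mice. In this test a difference between the models and one between their controls cannot be told apart. No factor was called, where 0.168% of all genes were. Cebpb was the only factor with an unadjusted p under 0.05, its rise being smaller in the PyMT model by a log2 difference of -1.17 (SE 0.31; limma, adjusted p = 0.175). For Cebpe the difference was 0.04 with a 95% interval of -2.74 to 2.83, too wide to exclude a several-fold difference. Between BrM of both models, where 1.94% of all genes were called, no factor was called by limma, and 1 had an unadjusted p under 0.05. This was Cebpb, which was lower in PyMT BrM at -1.0 (SE 0.25; limma, adjusted p = 0.0351), without overlap of the arrays, as for 17.6% of all genes in that direction. Without PyMT BrM 1, Klf2 at -2.06 and the brightest Klf4 probe at -2.47 were called lower in PyMT BrM (limma, adjusted p = 0.00374 and 0.00945). The other Klf4 probes gave -0.43 and -0.21 with all arrays.

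Between PyMT and naïve spleens no factor was called, where 0.0787% of all genes were. Irf8 at -1.43 (SE 0.49; limma, adjusted p = 0.141) and the brightest Klf4 probe at -2.18 (SE 0.84; limma, adjusted p = 0.182) were the 2 factors with an unadjusted p under 0.05, both lower in PyMT spleens. Without PyMT spleen 2 the difference of Irf8 was -0.75 (SE 0.22; limma, adjusted p = 0.0838). The other Klf4 probes gave -1.14 and 0.55.

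Genes known as targets of the factors were counted by list, beside the 4.89% of all genes that rose and the 4.13% that fell. Of 13 targets of C/EBPα, C/EBPε and GFI1, 12 fell in BrM and none rose, with a median log2 difference of -5.00 beside -0.01 over all genes. Ngp, a neutrophil granule protein, was 220-fold lower at -7.78 (SE 0.72; limma, adjusted p = 2.63e-06), and Camp, an antimicrobial peptide of secondary granules, was 176-fold lower at -7.46 (SE 0.62; limma, adjusted p = 7.54e-07). The list mean was 5.60 to 8.14 on BrM arrays and 10.56 to 12.24 on control arrays, and 6 of its genes are also among the 11 neutrophil markers. Against spleen 12 of the 13 fell and against bone marrow all 13 did. Cebpa itself had risen. GFI1 is a repressor, and the list did not separate activated from repressed genes. The fall of the list was therefore not read as the effect of any 1 factor.

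Of 10 targets of C/EBPβ, 3 rose and none fell, with a median of 0.81. Arg1, the arginase of macrophages, was 139-fold higher at 7.12 (SE 0.74; limma, adjusted p = 9.39e-06), and Ccl3, a chemokine, was 22.2-fold higher at 4.48 (SE 0.48; limma, adjusted p = 1.32e-05). Of 10 targets of MAF, 5 rose and none fell, with a median of 1.58, led by Gas6, a ligand for the clearance of dead cells, at 2.38 (SE 0.47; limma, adjusted p = 0.00247), and C1qa, a complement subunit, at 2.35 (SE 0.54; limma, adjusted p = 0.00715). Without PyMT BrM 1 the counts were 1 higher and 1 lower, and without PyMT spleen 2 they were 1 higher and none lower. Against spleen alone 3 of these targets rose and 1 fell, with C1qa at 1.45 (SE 0.47; limma, adjusted p = 0.0661), which did not pass, and against bone marrow alone 5 rose and none fell. Of the list, 4 genes are also among the macrophage markers. The list mean was 9.39 to 10.54 on PyMT BrM arrays and 8.67 to 8.89 on EO771 BrM arrays. The EO771 values and the lowest PyMT value lay within the spleen range of 7.60 to 9.72.

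Of 13 targets of PU.1, 3 rose and 1 fell, with a median of 0.41 (3 and none without PyMT BrM 1, 4 and 1 without PyMT spleen 2). In this list Fcgr1 and Csf1r are also among the macrophage markers. Fcgr1, the high-affinity IgG receptor, was 11-fold higher at 3.46 (SE 0.29; limma, adjusted p = 8.09e-07), Cd14, a coreceptor for lipopolysaccharide, was 3.06 higher (SE 0.47; limma, adjusted p = 0.000308), and Btk, a kinase of B and myeloid cells, was lower at -0.67 (SE 0.14; limma, adjusted p = 0.00331). Of 8 targets of IRF8, 3 rose and none fell, with a median of 0.58, among them the lysosomal proteases Ctsc at 2.03 (SE 0.34; limma, adjusted p = 0.000785) and Ctss at 1.87 (SE 0.44; limma, adjusted p = 0.00868), and this count fell to 1 without either PyMT BrM 1 or PyMT spleen 2. Against spleen alone 2 of the IRF8 targets rose and against bone marrow alone 4 did. Of 5 targets of KLF2 and KLF4, with a median of 0.37, only the cell cycle inhibitor Cdkn1a was called, at 4.17 (SE 0.42; limma, adjusted p = 5.88e-06), and a count of 1 in so short a list says nothing about the list.

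**Figure D5:**
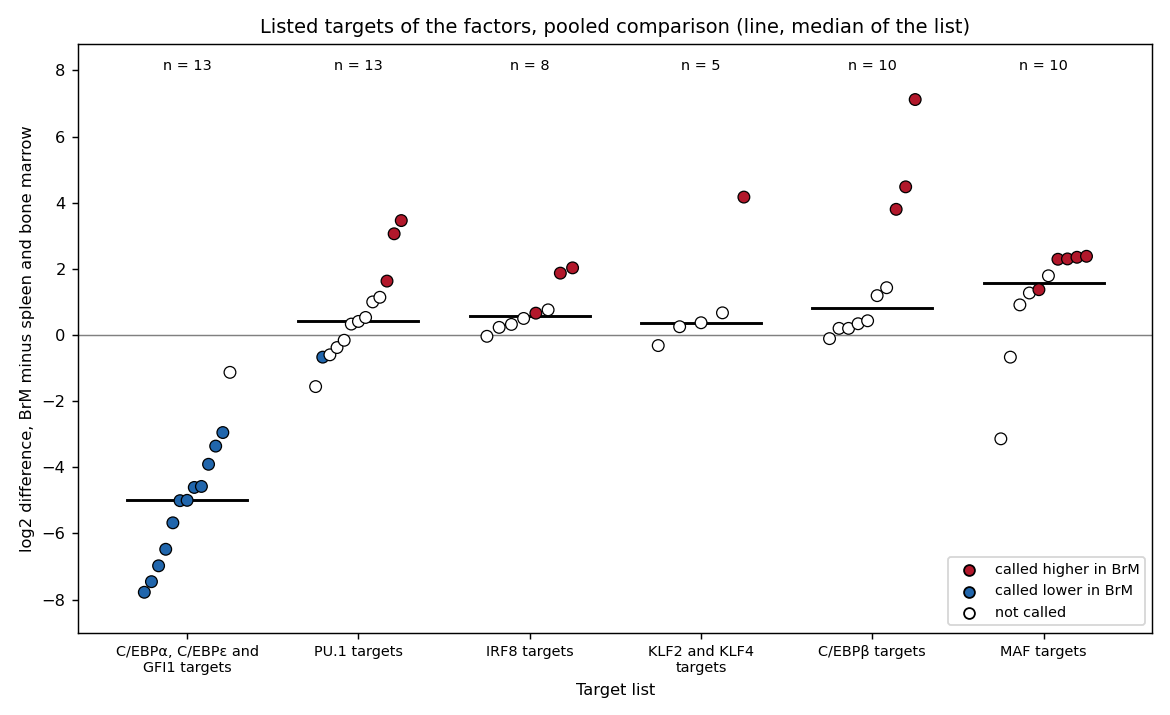
Log2 difference between BrM and the pooled controls (y axis) for the listed targets of each factor (x axis), 1 point per gene with a line at the median of the list; red genes were called higher, blue ones lower and white ones not called. Of 13 granulocyte targets 12 were lower, and in the other lists 1 gene was lower.

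Related factors were counted in the same way. Of 8 C/EBP family members and partners, 3 rose and none fell, with a median of 0.44. Without PyMT BrM 1 the count was 2. The rises were led by Atf3, a stress-induced partner, at 2.88 (SE 0.61; limma, adjusted p = 0.00431) and Trib1, a pseudokinase known to mark C/EBPα for degradation, at 2.25 (SE 0.30; limma, adjusted p = 0.000106). Of 14 members of the PU.1 and IRF families, 3 fell and none rose (2 and 1 without PyMT BrM 1), led by Ets1, a factor of lymphocytes, at -3.35 (SE 0.25; limma, adjusted p = 2.49e-07), and Spic, a factor of red pulp macrophages in the spleen, at -3.24 (SE 0.77; limma, adjusted p = 0.00985). Against bone marrow alone Spic was at -1.62 (limma, adjusted p = 0.157). B cell markers, of which 3 of 5 fell, had means of 3.71 to 4.57 on BrM arrays and 5.81 to 8.48 on control arrays. The part of lymphocytes in the fall of Ets1 was not tested.

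In the KLF family, the MAF family and the other myeloid factors, with medians of -0.34, -0.04 and -0.03, the share called was near the 9.03% of all genes, and nothing was read from these counts about the lists. Of 13 KLF family members 1 fell, Klf5, a factor best known from epithelium, at -3.57 (SE 0.51; limma, adjusted p = 0.000192), and of 10 MAF family members and partners 1 fell, Nfe2, a factor of red cells and platelets, at -3.52 (SE 0.44; limma, adjusted p = 4.84e-05). Erythroid markers, of which 5 of 6 fell, had means of 4.90 to 6.69 on BrM arrays and 6.58 to 10.90 on control arrays. Nfe2 also correlated with Gfi1 at 0.991 over the 14 arrays, a value that carries no test. The part of erythroid cells or of neutrophils in the fall of Nfe2 was not tested. None of 5 GFI family members and cofactors was called. Of 46 other myeloid transcription factors, 4 rose and none fell, led by the immediate early factors Egr1 at 3.55 (SE 0.45; limma, adjusted p = 6.54e-05) and Egr2 at 3.32 (SE 0.38; limma, adjusted p = 2.28e-05). Such genes also respond to dissociation, whose list had higher means on every BrM array than on any control array, and the part of sample handling was not tested.

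The genes whose pattern over the 14 arrays was most like that of each factor were taken from 12089 genes brighter than the median probe, by Pearson's r. The arrays fall into BrM and control arrays, which such a correlation spans, and it carries no test. For Cebpe these were Itgb2l at 0.992, Elane at 0.990 and Ms4a3 at 0.988, and Elane and Ms4a3 are also among the granulocyte targets. For Gfi1 they were Cldn15 at 0.993, Cep19 at 0.992 and Nfe2 at 0.991. For Cebpa they were Tmem159 at 0.954, Cysltr1 at 0.937 and Gamt at 0.936, and for Spi1 they were Csf2rb at 0.949, which is also among the PU.1 targets, Fmnl1 at 0.920 and Abraxas2 at 0.917. For Irf8 they were Ecsit at 0.963, Poglut1 at 0.962 and Rpl26 at 0.954, and for Klf4 they were Tnfaip3 at 0.928, Neo1 at 0.909 and Arl1 at 0.905. For Cebpb they were Tent5a at 0.949, Steap2 at 0.947 and Thbs1 at 0.943. The closest genes reached only 0.901 for Klf2 (Armcx5) and 0.868 for Maf (Wfikkn2).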

How the data were processed

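The deposited values were log2 expression values from Illumina MouseWG-6 v2 arrays, which the authors had quantile normalized (sorted values of any pair of the 14 arrays differed by at most 0.00192). The labels name GenomeStudio 2011.1 and limma, whose version and whose background treatment are not given in the sources used here. Of 45281 probes, 34885 carried 1 gene symbol in the platform annotation, 18 several and 10378 none (22.9%). No detection values were used. Precision is limited by how few arrays each condition had. The factors and gene lists were chosen with earlier results of these data known.

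Differences were tested with limma 3.58.1 in R 4.3.3 (lmFit and eBayes). Two-sided p-values were adjusted by the Benjamini-Hochberg method across the whole array, and 0.01 was the limit for a call. Pooling used 2 groups, comparisons by tissue used contrasts of 6 conditions, and comparisons by tumor model used 4 groups, each with 1 spread shared over all 14 arrays. A gene was represented by its brightest probe on average. Named genes were the 9 factors, the 2 largest called rises and 2 largest called falls of each pathway list in the pooled comparison, and the 3 genes most correlated with each factor. Lists were targets, families and cell type markers; of marker lists not described elsewhere, the pooled test called 3 of 8 monocyte genes higher and 1 lower (2 and none without PyMT BrM 1), none of 8 dendritic cell genes, 2 of 6 T cell and 1 of 5 NK cell genes lower, 2 of 7 epithelial genes (1 without PyMT BrM 1) and 2 of 8 endothelial and fibroblast genes higher, 1 of 6 brain genes each way, 1 of 6 cycling genes lower and none of 10 reference genes. Codes in the titles appear to tie arrays of different tissues to 1 mouse and were used as a random block in an alternative. PyMT BrM and spleen arrays of 1 code did not deviate together from their condition means (r of -0.06 to 0.00 over 3 pairs). The calculation was tested on simulated data. Alternatives were other scalings, filters, variance models, blocks, weights, thresholds and probe rules, the t-test of the methods, and leaving out each array. Promoter windows came from RefSeq (GRCm38.p6).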

Additional observations from a re-analysis of the deposited data

Results flagged for a closer look

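Each group of 4 to 8 arrays was searched, for each probe, for a highest or lowest array set apart from the rest. The measure was the gap to its neighbor as a share of the range of the group. Chance alone marks about 5% of such groups, and 2 of 70 were marked. The groups overlapped and some probes were of the same gene, so the 70 searches were not independent. Klf2 on PyMT BrM 1, at a log2 value of 10.68, stood above the other PyMT BrM arrays, of which the next was at 7.81 and the lowest at 7.66, a gap of 0.950 of the range. A fainter probe of Cebpe on PyMT BrM 3, at 5.86, stood above the other BrM arrays, of which the next was at 4.70 and the lowest at 4.13, a gap of 0.672 of the range. PyMT BrM 3 also had the highest neutrophil mean of the BrM arrays, at 9.09, and PyMT BrM 1 the highest dissociation mean, at 9.29, and the part of either in these values was not tested.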

How the results depend on the processing

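The pooled calls of Cebpa, Cebpe and Gfi1 held under all 12 alternatives and all 14 left-out arrays. At the looser limit of 0.05, which is among the 12, no call could be lost. The pooled count of factors higher, 2 as reported, was 1 with reference gene centering, cyclic loess, robust variance, the replicate block by mouse code, the replicate block by title number, the naïve bone marrow arrays averaged and the t-test of the methods, since Cebpb was lost, 3 with all probes of a gene averaged, since Klf4 was then called, and 1 to 2 on leaving out an array. Against spleen the count higher was 1 with the title number block and 1 to 3 on leaving out an array. Against bone marrow it was 3 with the filter on dim probes or a variance trend, 4 at an adjusted p under 0.05, 0 with the title number block or the naïve arrays averaged, and 0 to 3 on leaving out an array. Between spleen and bone marrow it was 0 to 1 in each direction on leaving out an array. In the PyMT model the count lower was 0 with the title number block and 1 to 2 on leaving out an array, where the count higher was 0 to 2. In the EO771 model the count higher was 2 at an adjusted p under 0.05 and 0 to 1 on leaving out an array, and the count lower was 2 with reference gene centering, the dim filter or an adjusted p under 0.05, 0 with the title number block, the naïve arrays averaged or all probes averaged, and 0 to 2 on leaving out an array. Between BrM of both models the count lower was 1 with a variance trend or an adjusted p under 0.05 and 0 to 2 on leaving out an array. The causes were not tested.

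The sign of a value changed 52 times, never for a called value. Irf8 against spleen was -0.07 with reference gene centering. The difference between the models for Cebpe was -0.05 with reference gene centering, -0.07 with cyclic loess, -0.37 with the naïve arrays averaged and -0.20 with probes averaged. For Klf4 it was 0.04 with the mouse code block, 0.29 with the title number block and 0.16 with the naïve arrays averaged, and for Gfi1 -0.15 with the latter. Between BrM of both models Gfi1 was 0.05 and Spi1 0.08 with reference gene centering, and 0.10 and 0.26 with the title number block. On leaving out an array, Spi1 was -0.48 to 0.03 and Irf8 -0.17 to 0.34 against spleen, and Maf was -0.15 to 0.36 and Cebpb -0.02 to 0.25 between spleen and bone marrow. The difference between the models was then -0.51 to 0.61 for Cebpe, -0.18 to 0.70 for Gfi1, -0.27 to 0.47 for Irf8, -0.85 to 0.52 for Klf4 and -0.72 to 0.12 for Maf. Between BrM of both models Cebpa was -0.08 to 0.44, Cebpe -0.25 to 0.76, Gfi1 -0.21 to 0.06 and Spi1 -0.24 to 0.12, and between the spleens Gfi1 was -0.15 to 0.94 and Cebpb -0.18 to 0.32.

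In the pooled comparison 3132 probes were called, against 1998 with the title number block and 5539 at an adjusted p under 0.05. With all probes of a gene averaged, 1619 genes were called, beside 1720 genes by their brightest probe in the main fit. Same-numbered PyMT BrM and spleen arrays did not deviate together, with correlations of -0.06 to -0.03 by title number, so these numbers were not read as pairs. The replicate block by mouse code changed no call of a factor but that of Cebpb in the pooled comparison.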
